A study of Mus musculus with 4 samples.

Results

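The comparison concerned the brain at 7 days after transient middle cerebral artery occlusion (tMCAO), a model of stroke in which blood flow is stopped and then restored, against sham surgery. It asked which transcripts differed between both libraries in all of 5 major cell classes and which differed in 1 class alone. Both libraries were made from the ipsilateral hemisphere of male C57/BL6 mice of 8 weeks. In tMCAO mice a monofilament was passed to the middle cerebral artery and later drawn back. Sham mice had the operation with no occlusion, and the design text places the sham sample at day 7 too. All brains were perfused, digested with papain at 37 °C and freed of myelin debris on Percoll before capture on the 10x Genomics platform. Each group was 1 library, whether several animals were pooled is not given in the sources used here, and so the operation, the mouse and the preparation cannot be told apart. The series holds 59429 cell barcodes in 4 libraries (sham and days 1, 3 and 7), of which 54754 had 200 to 6000 detected genes and at most 10% of their unique molecular identifiers (UMIs, 1 per captured RNA molecule) from mitochondrial genes. The sham and day 7 libraries kept 26742 such cells. A cell entered a class when UMIs of at least 3 of the 12 markers of that class were counted in it and no other class had more than 0.5 times as many of its markers counted. The gate took 22532 cells, 8412 from sham and 14120 from day 7.

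Brain endothelial cells line the vessels and form the blood-brain barrier, and mural cells (pericytes and smooth muscle cells) wrap them and set vessel tone. Oligodendrocytes make myelin, microglia are the resident phagocytes, and astrocytes supply neurons and contact vessels. After stroke each of them is known to change its transcripts, through programmes that several classes can share, such as the interferon response and the immediate-early genes, and through programmes of 1 class, such as the phagocytic state of microglia.

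The sham library held 11744 barcodes and 90607320 UMIs and the day 7 library 17922 barcodes and 90072740 UMIs, so that kept cells were deeper in sham (median 5493 UMIs) than at day 7 (median 3178). Only 66 barcodes occurred in both. Scrublet called 298 sham cells (2.92%) and 1044 day 7 cells (6.31%) doublets, and these cells were kept in the values that follow. Haemoglobin transcripts, which mark red cells and free RNA from them, were lower at day 7 in every class, and the summed level of the 7 erythrocyte markers went from 5580 to 1161 CPM (counts scaled to a common total of UMIs per class and library) in endothelial cells and from 5814 to 597 CPM in microglia. Its part in the other differences was not tested.

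Endothelial cells made up 5700 of the kept sham cells (55.9%, exact 95% binomial interval 55.0 to 56.9) and 9884 at day 7 (59.7%, 59.0 to 60.5). Mural cells numbered 1132 (11.1%) and 2230 (13.5%), and oligodendrocytes 1373 (13.5%) and 1659 (10.0%). Microglia were few, 133 in sham (1.30%, 1.09 to 1.54) and 301 at day 7 (1.82%, 1.62 to 2.03), and astrocytes fewer, 74 (0.73%) and 46 (0.28%). Median numbers of own markers counted per cell were 8 to 12 by class, those of any other list were 0 to 2, and between 0 and 25 cells of a class and library sat at the minimum of 3 markers. The gate also refused cells: 57 sham and 79 day 7 cells with enough microglial markers were left out for markers of another list. Gated microglia lay in clusters of more than 1 kind and are described by cluster. All intervals here and below cover counting error alone, not the spread between mice, and no test was possible.

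UMIs were summed over the cells of a class in each library. A gene was measured in a class at 50 CPM or more in at least 1 library and 20 or more UMIs over both. It was called higher or lower at day 7 when the log2 ratio, with 10 CPM added to both levels, was 1 or more in size and the 95% counting interval of the ratio did not include 1. A gene under 50 CPM in sham was thus measured only because day 7 passed the minimum, and could be called only as higher. In endothelial cells 41 of 3994 measured genes were called higher (1.03%) and 33 lower (0.826%). In mural cells 37 of 3479 were higher (1.06%) and 6 lower (0.172%), and in oligodendrocytes 52 of 3347 were higher (1.55%) and 12 lower (0.359%). Microglia had 113 of 3029 higher (3.73%) and 87 lower (2.87%), and astrocytes 102 of 3411 higher (2.99%) and 127 lower (3.72%). The classes with the largest shares of called genes were also those with the fewest UMIs, 420515 and 1279628 for microglia and 235353 and 135106 for astrocytes against 28304332 and 32966158 for endothelial cells, in sham and at day 7. The part of depth in these shares was not tested. Most measured genes stayed within 1.5-fold, from 84.6% in endothelial cells to 70.3% in astrocytes, and the median log2 ratio of all measured genes lay between -0.04 and 0.08 in the 5 classes.

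**Figure D1:**
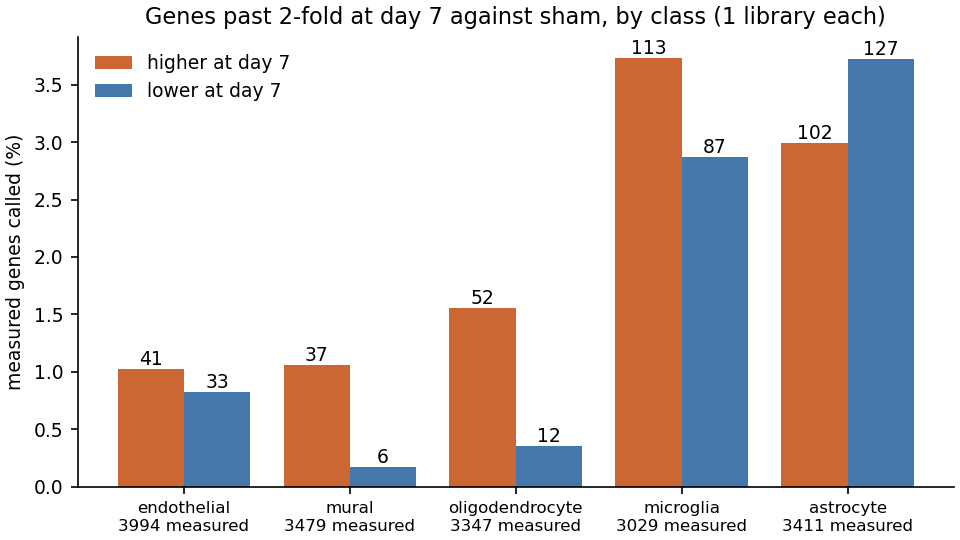
Bars give the share of measured genes (%) called higher (orange) or lower (blue) at day 7 against sham in each gated class, with the number of genes above each bar and the number measured under it, from 1 library a group. Mural cells had 6 genes lower against 37 higher, while astrocytes had 127 lower against 102 higher.

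In all 5 classes together 1406 genes were measured. None of them was called higher in every class (0%), and 1, Gm47283, was called lower in every class (0.0711%). Gm47283 is an uncharacterised gene annotated as protein-coding on chrY:90784738-90816464 (GRCm38, plus strand). Its level went from 159 CPM in sham to 44.5 CPM at day 7 in endothelial cells, a ratio of 0.279 (95% counting interval 0.263 to 0.296). In mural cells it went from 172 to 38.7 CPM, and in oligodendrocytes from 163 to 31.2 CPM (ratio 0.191, 0.172 to 0.212). Microglia had 514 and 37.5 CPM and astrocytes 467 and 96.2 CPM. At day 7 it passed the 50 CPM minimum in astrocytes alone, so that in the other 4 classes it was measured through sham only and could be called only as lower. The difference was largest in microglia, with log2 ratios of -3.46 there and -1.64 in endothelial cells. Other genes of the Y chromosome were not called with it: in endothelial cells Ddx3y, an RNA helicase, had 73.2 and 113.7 CPM and Eif2s3y, a translation initiation factor, 69.5 and 89.1 CPM. On days 1 and 3 Gm47283 stood between both values in all 5 classes, at 109 and 104 CPM in endothelial cells and 137 and 115 CPM in oligodendrocytes. The locus has near-identical copies in the genome, so that its reads may have been split or lost in counting, and the value is uncertain in that respect.

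The red cell transcript Hbb-bs, adult beta-globin, was a gate marker and stood outside these counts, but it would also have passed in all 5 classes. It went from 3812 to 867 CPM in endothelial cells, from 602 to 34.3 CPM in mural cells and from 4787 to 472 CPM in microglia. In astrocytes it rested on 38 and 4 UMIs. The classes therefore shared lower haemoglobin RNA, a transcript that none of them is known to make in quantity.

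Of the genes called higher, 303 were called in 1 class, 13 in 2 classes, 4 in 3 classes and 1 in 4 classes. Of those called lower, 214 were called in 1 class, 14 in 2, 2 in 3, 3 in 4 and 1 in 5. Of the genes called in 1 class, only 61 of the 303 higher and 53 of the 214 lower were measured in all 5 classes, so that for most of them at least 1 other class gave no value. Fosb, an immediate-early transcription factor of the AP-1 family, was the gene called higher in 4 classes. It went from 420 to 960 CPM in endothelial cells, from 425 to 908 CPM in mural cells and from 140 to 312 CPM in oligodendrocytes. In astrocytes it had 1 and 19 UMIs (4.25 and 140.6 CPM, ratio 33.1, 5.26 to 1375). It was measured there through day 7 only and could be called only as higher. Microglia were the exception, at 740 CPM in sham and 533 CPM at day 7. Egr1, another immediate-early transcription factor, was called in endothelial cells (331 and 850 CPM), mural cells (303 and 868 CPM) and astrocytes (7 and 33 UMIs), while oligodendrocytes had 139 and 271 CPM. In astrocytes Egr1 too passed the minimum through day 7 only (29.7 and 244 CPM). Of the 19 immediate-early genes measured in endothelial cells, 2 were called higher (Fosb, Egr1; 1.03% of all genes there were), 14 had log2 ratios above 0, and the median was 0.14 against 0.07 for all measured genes. In mural cells 3 of 19 were called higher (with Zfp36, which destabilises cytokine mRNAs; 1.06% of all genes were), 17 had log2 ratios above 0, and the median was 0.29 against 0.08. In oligodendrocytes 1 of 12 was called higher (Fosb; 1.55% of all genes were), all 12 had log2 ratios above 0, and the median was 0.51 against 0.01. Of these 12 genes 2 passed the minimum through day 7 only. In microglia none of 18 was called and the median was -0.41 against -0.04.

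Ddit4, an inhibitor of mTOR signalling induced by hypoxia and glucocorticoids, was called higher in 3 classes. It went from 57.5 to 162 CPM in endothelial cells, from 87.1 to 201 CPM in mural cells and from 98.1 to 295 CPM in oligodendrocytes. In astrocytes it had 46.7 and 88.8 CPM and was not called, and in microglia it was too low to be measured. Ptgds, the prostaglandin D2 synthase abundant in oligodendrocytes and meninges, went from 149 to 308 CPM in endothelial cells and from 138 to 363 CPM in microglia. In oligodendrocytes it went from 18024 to 42812 CPM (ratio 2.38), so that its level in the other classes moved together with a far higher source level, and the part of free RNA in them was not tested. Tob2, an antiproliferative factor, had log2 ratios between 0.58 and 1.28 in the 5 classes and was called in mural cells, oligodendrocytes and astrocytes. Gm42418, a non-coding RNA at chr17:39846958-39848788 that overlaps AY036118 on the opposite strand, was lower in 4 classes and had a log2 ratio of -0.97 in mural cells.

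**Figure D2:**
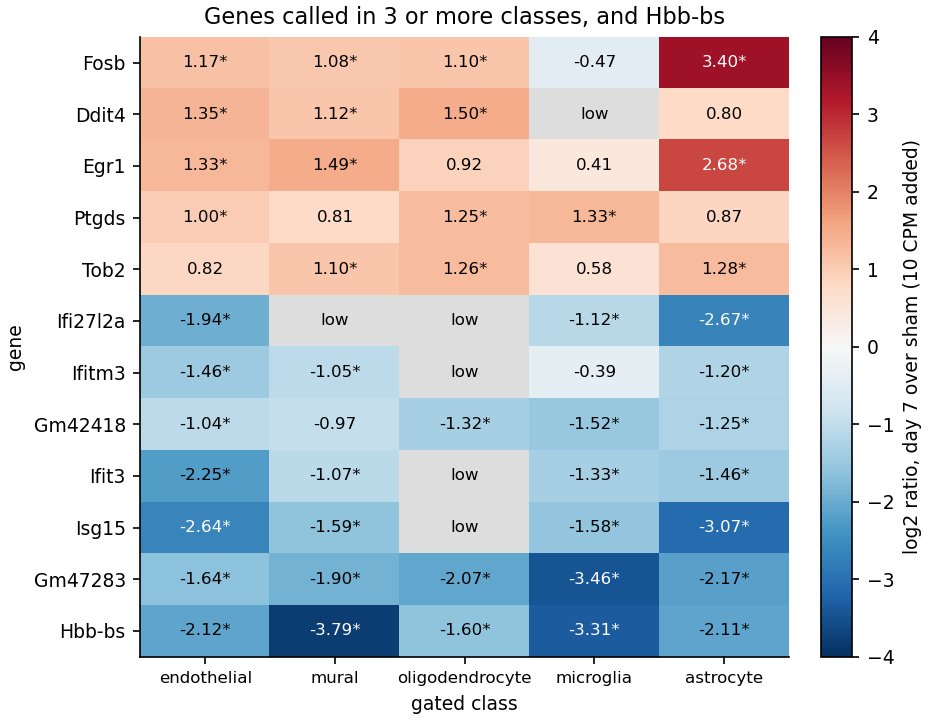
Each cell gives the log2 ratio of day 7 over sham (10 CPM added) of a gene called in 3 or more classes, and of Hbb-bs, in each gated class, where an asterisk marks a call and grey marks a level too low to be measured. Gm47283 and Hbb-bs are called lower in all 5 columns, whereas Fosb is called higher in every column but microglia, where it is -0.47. In astrocytes Fosb and Egr1 pass the 50 CPM minimum through day 7 only.

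Since astrocytes were few, the shared genes were also counted over the other 4 classes at a lower bar of 1.5-fold. Of 1600 genes measured in all 4, 13 were then higher in every class (0.812%) and 3 lower (0.188%; Ssr2, Gm42418 and Gm47283). Examples of the 13 are the RNA-binding proteins Hnrnpa2b1, Hnrnpl and Pcbp2, the cell cycle inhibitor Cdkn1b, the phosphatase subunit Ppp3ca and the adaptor Tab2. No list of RNA-binding proteins was counted. The ratios of the 13 ranged widely. Pcmtd1 was even, with 308 and 489 CPM in endothelial cells and 81.1 and 130.4 CPM in oligodendrocytes. Rpl23a, a ribosomal protein gene, was uneven, with 85.8 and 138 CPM in oligodendrocytes and 107 and 381 CPM in microglia.

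Genes of 1 class alone were counted strictly, as those called in 1 class with a log2 ratio under 0.5 in size in each of the other 4. There were 0 for endothelial cells (0%) and 0 for mural cells (0%), 1 for oligodendrocytes (0.0711%), 14 for microglia (0.996%) and 34 for astrocytes (2.42%). These counts moved with the settings. Microglia had 4 with classes taken from clusters, astrocytes 12 after thinning to 1000 UMIs and oligodendrocytes 0 with 2 markers per cell. The oligodendrocyte gene was Actg1, a cytoplasmic actin, at 1314 CPM in sham and 611 CPM at day 7. The 14 microglial genes were 12 higher, among them Apoe, Anxa5, Gng12 and Ctsb, and 2 lower, Srsf7 and Ckb. Of those named, Anxa5 and Gng12 passed the minimum in microglia through day 7 only. Astrocytes had 14 higher and 20 lower. With astrocytes left out of the comparison, 1 endothelial gene met the same bar, the kinase gene Pim3 (184 and 385 CPM), and 3 did so in oligodendrocytes (Marcks, Cdkn1a and Actg1). In microglia 14 higher and 6 lower genes then met it. Other genes were measured in 1 class only. Of 586 such genes in endothelial cells 13 were higher and 14 lower (1.03% and 0.826% of all genes there were). Of 388 in mural cells 6 and 1 were (1.06% and 0.172%), and of 465 in oligodendrocytes 10 and 3 (1.55% and 0.359%). Of 526 in microglia 30 and 32 were (3.73% and 2.87%), and of 580 in astrocytes 30 and 29 (2.99% and 3.72%). Whether these shares differ from those of all genes was not tested.

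In endothelial cells the lower genes were led by interferon-stimulated genes, the antiviral programme that type I interferon switches on. Of the 24 genes listed, 22 were measured, each past the minimum in both libraries. Of these 15 were lower, against 0.826% of all genes, and none was higher, with a median log2 ratio of -1.33 against 0.07 for all measured endothelial genes. The summed level of the list went from 14944 to 4835 CPM. Isg15, a ubiquitin-like modifier, led the falls, from 2109 to 329 CPM (ratio 0.156, 0.153 to 0.159). Ifit3, which binds to antiviral signalling complexes, went from 820 to 165 CPM (0.201, 0.195 to 0.207). Ifit3b, its close copy, went from 302 to 57.1 CPM, and reads may be shared between the pair. All of these lie in the same antiviral programme. Irf7, the transcription factor that amplifies the response, went from 981 to 220 CPM, and Bst2 (tetherin) from 1252 to 412 CPM. Ifitm3, a membrane protein that blocks viral entry and the most abundant of the list, went from 5296 to 1918 CPM. Stat2, a factor that reads the interferon signal, had 135 and 79.7 CPM and was not called. The list was also low on day 1 (4418 CPM) and stood at 9446 CPM on day 3, so that the sum was highest in sham.

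The promoters of some of these genes are shown because they hold the sequence to which the interferon-activated complex is known to bind. Of the 24 genes, 19 are in the RefSeq promoter table (GRCm38.p6), and 10 of these held, on either strand, GAAA followed after 2 bases by a second GAAA in the 250 bases before a start (52.6%), against 936 of all 27025 symbols in the table (3.46%). Stretches around the matches follow, 5′ to 3′ on the strand of the gene, with the matched bases in capitals.
Isg15, chr4:156200855-156200916, minus strand: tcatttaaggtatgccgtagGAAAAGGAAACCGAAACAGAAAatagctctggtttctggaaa
Ifit1, chr19:34640765-34640833, plus strand: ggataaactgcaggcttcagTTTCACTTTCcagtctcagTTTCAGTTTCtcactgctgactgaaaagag
Ifit3, chr19:34583353-34583436, plus strand: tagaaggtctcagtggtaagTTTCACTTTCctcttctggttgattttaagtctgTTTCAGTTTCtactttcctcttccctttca
Bst2, chr8:71537567-71537622, minus strand: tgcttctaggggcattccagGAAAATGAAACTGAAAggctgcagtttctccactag
Irgm1, chr11:48871421-48871470, minus strand: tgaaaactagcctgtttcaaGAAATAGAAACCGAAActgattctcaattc
In Isg15 3 overlapping matches ended 56 bases before the start, and in Ifit1 and Ifit3 the match read on the opposite strand. The stretch of Ifit3b (chr19:34607749-34607832) was the same as that of Ifit3. Of the 15 genes lower in endothelial cells 12 are in the table and 7 of them held a match, while Stat2 and Trim30a held one and were not called there, and Cxcl10 held one and was too low to be measured. A match describes the letters and shows no binding.

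**Figure D3:**
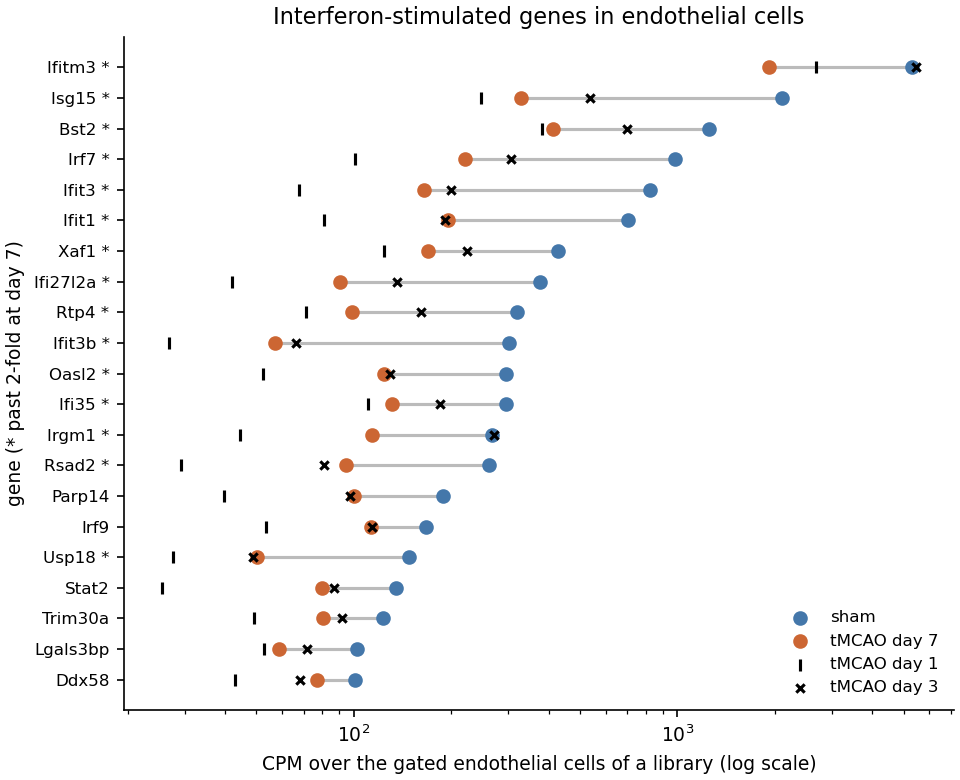
Points give the CPM (log scale) of 21 of the measured interferon-stimulated genes over the gated endothelial cells of each of the 4 libraries, sham in blue and day 7 in orange, with asterisks for genes past 2-fold at day 7. The day 7 point lies left of the sham point in every row, from 2109 to 329 CPM for Isg15 and from 135 to 79.7 CPM for Stat2.

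The other classes shared part of this fall. In microglia 12 measured genes of the list passed the minimum in both libraries and 7 of them were lower (2.87% of all genes were), while another 7 that were lower passed it in sham only. In astrocytes 2 of 4 that passed in both were lower (3.72% of all genes). In mural cells 2 of 4 were (0.172% of all genes), and with the 1 that passed in sham only the lower genes were Isg15 (260 and 79.5 CPM), Ifitm3 (1296 and 622 CPM) and Ifit3 (69.0 and 27.5 CPM). Oligodendrocytes measured 1 gene of the list and it was not called. Sham and day 7 endothelial cells fell largely into different clusters when cells were clustered on all genes. Clusters 2, 3 and 4 held 12.3%, 26.4% and 34.5% of the sham cells, and clusters 6, 8, 9 and 11 held 22.1%, 18.7%, 20.4% and 14.6% of those at day 7. Interferon-stimulated genes are themselves among the leading genes of the sham clusters. Within each of the 9 clusters with at least 50 endothelial cells of both libraries, the summed level of the list was lower at day 7, with ratios from 0.305 to 0.778. The same was seen in 3 of 3 mural clusters (0.330 to 0.690).

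Examples of the endothelial genes that were higher follow, and no list of secreted or receptor proteins was counted. Lcn2, the iron-binding lipocalin of acute inflammation, went from 58.6 to 254 CPM (ratio 4.34, 4.12 to 4.58) and stood at 176 CPM on day 1 and 3133 CPM on day 3. Cluster 5 alone held 1578 of its 1658 sham UMIs and 7535 of its 8384 day 7 UMIs, at 442 and 1478 CPM, and the other clusters compared stood at 15.2 CPM or less. Tfrc, the transferrin receptor that carries iron across the barrier, went from 324 to 752 CPM (2.32, 2.27 to 2.38). Ctgf, a matricellular protein, went from 32.4 to 117 CPM and Vwf (von Willebrand factor) from 313 to 667 CPM. Ctgf passed the 50 CPM minimum through day 7 only and could be called only as higher. Bmpr2 and Smad6, a receptor and an inhibitor of BMP signalling, went from 336 to 734 CPM and from 53.2 to 129.0 CPM. The largest rises among genes that no other class held at over 5 times the level were Lcn2, Gm26802 and Rictor. Rictor, a subunit of mTOR complex 2, went from 59.1 to 168 CPM. Gm26802, a long non-coding RNA, went from 59.5 to 184 CPM, and it lies at chr7:19298260-19300770 on the same strand as Fosb, downstream of its end (chr7:19302696-19310051), so that its level and that of Fosb may share reads. Among falls outside the interferon list, Sparc, a matrix glycoprotein, went from 1867 to 803 CPM and Gsta4, a glutathione transferase, from 582 to 232 CPM. Gsta4 was among the leading genes of cluster 3, which held 26.4% of the sham and 1.90% of the day 7 endothelial cells. Vwf, Bmpr2, Smad6, Rictor, Gm26802, Sparc and Gsta4 were not compared within clusters. The part of the different cluster make-up in their values was not tested.

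None of 12 blood-brain barrier transport genes was called, with a median log2 ratio of 0.25 against 0.07 for all measured genes; since 1.03% of all genes were called higher and 0.826% lower, lists of this size would seldom hold a call. Slc2a1, the glucose transporter, had a ratio of 1.31, the efflux pump gene Abcb1a had 832 and 1250.0 CPM, and the lipid transporter gene Mfsd2a had 482 and 317 CPM. None of 6 measured chemokine and adhesion genes was called either, Vcam1 having 302 and 448 CPM and Icam1 103 and 186 CPM. These levels differed by more than counting error and by less than the 2-fold bar.

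Mural cells had more genes higher (37) than lower (6). Those lower were 24 at the 5% mitochondrial limit and 35 with classes taken from clusters. In the pericyte-like part described below 93 were higher and 36 lower. The largest rises among genes that no other class held at over 5 times the level included Egr1 (ratio 2.86, 2.72 to 3.01), which was higher still in microglia (1241 and 1658 CPM), and Samd4, a translational repressor, which went from 42.7 to 126 CPM. Of the 12 matrix genes past the minimum in both libraries 1 was higher (1.06% of all genes were), Timp3, an inhibitor of metalloproteinases (615 and 1384 CPM). Fn1, fibronectin, passed through day 7 only (19.5 and 57.4 CPM). The protease gene Adamts1 went from 303 to 691 CPM, and the inflammatory regulator genes Nfkbiz and Zfp36 went from 62.9 to 193 CPM and from 394 to 902 CPM. None of 13 contractile genes was called, where 1.06% of all mural genes were higher and 0.172% lower. Spp1 (osteopontin), a secreted adhesion protein, went from 10.8 to 137 CPM (12.6, 9.9 to 16.3), after 646 CPM on day 1 and 457 CPM on day 3. Samd4 and Spp1, like Fn1, passed the minimum through day 7 only and could be called only as higher. The lower genes were Gm47283, Atf5, a stress-related transcription factor (156 and 71.4 CPM), and 4 that respond to interferon (Isg15, Ifit3, Ifitm3 and Ifi27). Atf5 did not reach the bar under stricter purity (log2 ratio -0.98) or with cells of up to 3000 genes (-0.97), and had -0.42 at the 5% mitochondrial limit.

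Mural cells were split by their pericyte and smooth muscle markers. The pericyte-like part held 281 sham and 570 day 7 cells and the smooth muscle-like part 841 and 1633, or 24.8% and 25.6% pericyte-like cells. Spp1 had 72.3 and 1067 CPM in pericyte-like cells (ratio 14.7, 11.2 to 19.9) and 3.04 and 9.86 CPM in smooth muscle-like cells (3.24, 1.91 to 5.82). Most of its UMIs lay in pericyte-like cells, but by cluster it was higher in all 3 mural clusters, from 50 to 1236 UMIs in cluster 1, from 2 to 53 in cluster 0 and from 2 to 63 in cluster 17 (19.4, 5.16 to 164). Egr1 had 328 and 955 CPM in smooth muscle-like and 128 and 244 CPM in pericyte-like cells. Ifitm3 went from 3786 to 1285 CPM in pericyte-like cells, the richer of both parts, and had 964 and 527 CPM in smooth muscle-like cells, short of the bar. Atf5 went from 172 to 77.5 CPM in smooth muscle-like cells and had 40.3 and 33.0 CPM in pericyte-like cells, under the minimum. Whether these differences themselves differ between the parts was not tested.

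In oligodendrocytes the higher genes included several known to respond to glucocorticoids, the stress steroids that act through a nuclear receptor. Of 10 genes in that list 8 were measured. Of these 3 (Zbtb16, Cdkn1a and Plin4) passed the 50 CPM minimum through day 7 only, so that they had to differ, and of the 5 that also passed in sham 2 were higher, Sgk1 and Ddit4 (1.55% of all genes were). Sgk1, a kinase that controls ion channels and cell survival, went from 315 to 1399.6 CPM (ratio 4.44, 4.29 to 4.59). Plin4, a lipid droplet protein, went from 4.63 to 64.7 CPM (14.0, 10.8 to 18.3), and Cdkn1a, the cell cycle inhibitor p21, from 12.3 to 87.2 CPM. Zbtb16, a zinc finger repressor, went from 14.0 to 56.1 CPM. Their levels on day 1 were of the same order, 1274 CPM for Sgk1 and 82.6 CPM for Plin4, and lower on day 3 at 492 and 18.9 CPM. Tsc22d3 (GILZ), among the best known glucocorticoid targets, did not differ at 120 and 114 CPM. Sgk1 and Plin4 were also higher inside cluster 14, which held 84.9% of the sham and 86.5% of the day 7 oligodendrocytes, at 322 and 1473 CPM and at 5.23 and 69.7 CPM.

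A stretch of the Sgk1 promoter is printed because it was the 1 gene of the list, of 9 in the RefSeq table, to hold the letters of the glucocorticoid receptor element, GNACA followed after 3 bases by TGTNC, within 250 bases before a start. The same letters occurred in 119 of 27025 symbols (0.44%), and the match lay 175 bases before 1 of 6 annotated Sgk1 starts.
Sgk1, chr10:21993682-21993734, plus strand: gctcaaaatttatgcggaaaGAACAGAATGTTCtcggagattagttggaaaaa
Capitals mark the match, which reads on both strands. It is a description of the letters.

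C4b, complement component 4, went from 6.22 to 86.8 CPM (13.9, 11.2 to 17.6), after 287 CPM on day 1 and 158 CPM on day 3. H2-D1, an MHC class I heavy chain, went from 45.0 to 106 CPM. Apod, a lipid carrier, went from 1067 to 2467 CPM and Abca1, a cholesterol exporter, from 11.1 to 52.7 CPM. The serine protease gene Htra1 went from 161 to 505 CPM. Arl4d and Itgad, the further largest rises among genes held by no other class at over 5 times the level, went from 38.6 to 153 CPM and from 22.6 to 84.5 CPM. Of these 7 genes, Apod and Htra1 passed the minimum in sham too, whereas C4b, H2-D1, Abca1, Arl4d and Itgad passed through day 7 only. Fabp5, a fatty acid carrier, was lower at 1349 and 516 CPM, and so was the small heat shock protein gene Cryab at 7311 and 3324 CPM. Actg1, the gene of this class alone, had 1314 and 611 CPM (0.465, 0.453 to 0.477), with 734 CPM on day 1 and 1141 CPM on day 3. The structural myelin gene Mbp stayed close to sham, with a ratio of 0.993, and of the 10 myelin genes measured only Apod and Ptgds were called (1.55% of all genes were higher). Apod did not reach the bar in cluster 14 (934 and 1788 CPM) and went from 2029 to 8515 CPM in cluster 23.

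**Figure D4:**
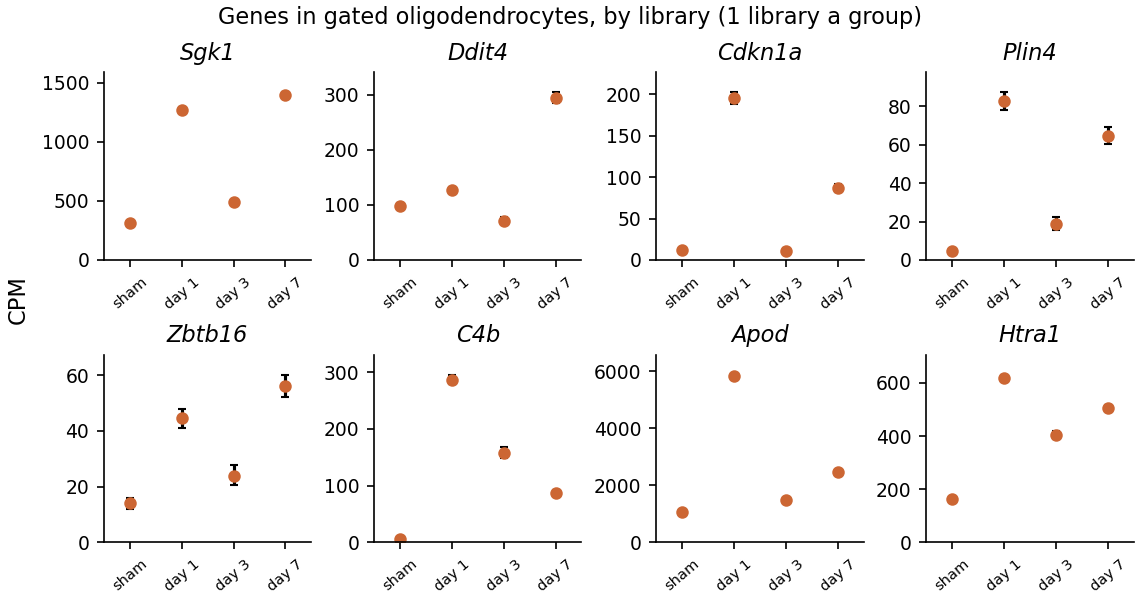
Points give the CPM of 8 genes over the gated oligodendrocytes of each library, with bars for the exact 95% Poisson interval, which covers counting error only. Sgk1 stands at 315 CPM in sham and at 1274, 492 and 1399.6 CPM on days 1, 3 and 7, whereas C4b is highest on day 1 at 287 CPM.

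In microglia the higher genes were led by those of lipid-handling, phagocytic cells. Of the 19 genes of the injury-associated list in the files, 17 were measured. Of these 9 passed the 50 CPM minimum through day 7 only, so that they had to differ, and of the 8 that also passed in sham 4 were higher (Apoe, Lyz2, Cd63 and Pld3; 3.73% of all genes were). Apoe, the main lipid carrier of the brain, went from 1360 to 54954 CPM (ratio 40.4, 37.2 to 43.9), with 5581 CPM on day 1 and 17816 CPM on day 3. Lyz2, lysozyme, went from 276 to 5789 CPM (21.0, 17.5 to 25.4). Several genes were nearly absent in sham. Spp1 had 4 UMIs in sham and 2470 at day 7, Lgals3 (galectin-3) 3 and 605 (66.3, 22.6 to 322) and Cst7 (cystatin F) 2 and 167 (27.4, 7.48 to 228). Gpnmb, a glycoprotein of lipid-laden phagocytes, had 0 UMIs in sham and 1003 at day 7, at least 109.9-fold higher against a floor of 3 counts in the sham class.

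These values came from cells that were not alike. The gated microglia lay in cluster 13 (87 sham and 172 day 7 cells), cluster 10 (45 and 91) and cluster 27 (1 and 36). Cluster 10 had border macrophage markers, Pf4 and Mrc1, among its leading genes, and cluster 27, led by Igkc, Cd74, Gpnmb and Lyz2, was not named. Of the day 7 UMIs in gated microglia, the 36 cells of cluster 27 held 25.5%. They held 92.7% of those of Spp1, 97.1% of Gpnmb, 83.4% of Lyz2 and 62.8% of Apoe, while cluster 13 held 23.4% of those of Apoe. With cluster 13 alone, whose markers match the label, 3163 genes were measured, 92 were higher and 51 lower. The injury-associated genes higher there were Apoe, Cd63 and Lyz2, which passed the minimum in sham too, and Spp1, Lpl, Cst7, Fabp5 and Igf1, which passed through day 7 only. In that cluster Apoe went from 371 to 19861 CPM (53.5, 45.1 to 63.8), whereas Lyz2 went from 201 to 834 CPM, a ratio of 4.15. Spp1 had 0 UMIs in sham and 63 at day 7 (76.1 CPM), and Gpnmb 0 and 15.7 CPM. Apoe was therefore as different in cluster 13 alone. The day 7 levels of Apoe, Spp1, Gpnmb and Lyz2 over the whole class nevertheless rested mostly on cluster 27. Where classes were instead taken from whole clusters, with no gate on each cell, Apoe had a log2 ratio of 0.09, Lyz2 -1.28 and Anxa5 -0.34, so that the microglial differences depend on which macrophages are counted as microglia. The summed border macrophage markers in gated microglia were 83.2 CPM in sham and 329 CPM at day 7, and those of monocytes 95.1 and 239 CPM.

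**Figure D5:**
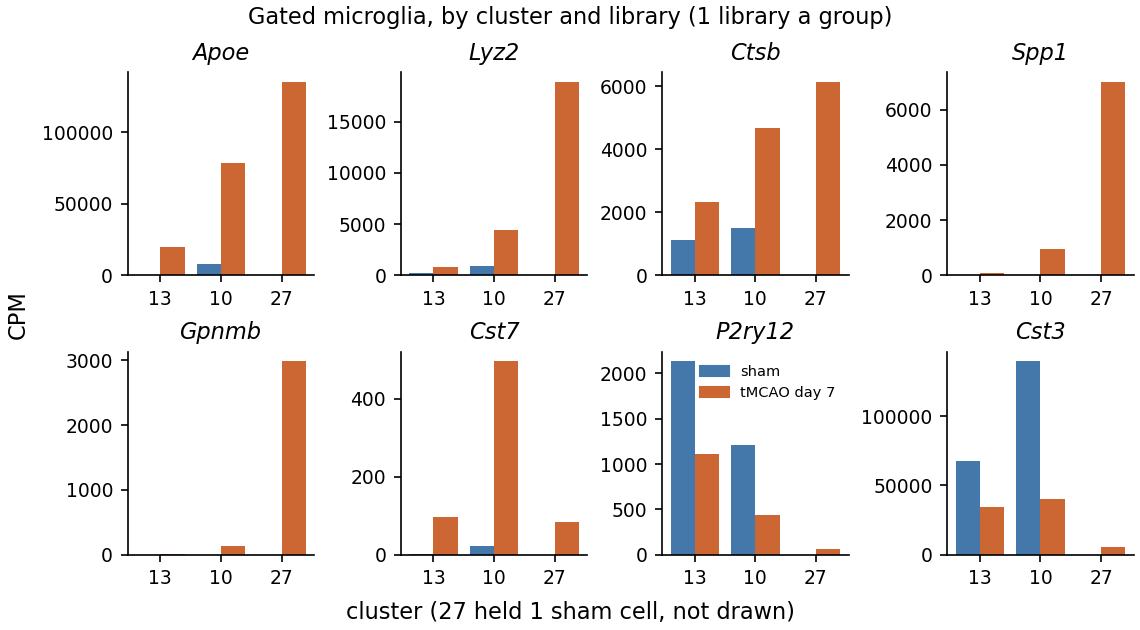
Bars give the CPM of 8 genes over the gated microglia of sham (blue) and day 7 (orange) in clusters 13, 10 and 27. Apoe is higher at day 7 in clusters 13 and 10 (19861 and 78530 CPM) and stands highest in cluster 27 (135262 CPM). Spp1 and Gpnmb stand at 7009 and 2981 CPM in cluster 27 and at 76.1 and 15.7 CPM in cluster 13 at day 7. In cluster 10 Spp1 has 22.8 CPM in sham and 950 CPM at day 7.

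The genes of this class alone included Anxa5, which binds exposed phosphatidylserine (45.2 and 209 CPM), Gng12, a G protein subunit (14.3 and 86.0 CPM), and Ctsb, the lysosomal protease cathepsin B (1132 and 3533 CPM). In cluster 13 they had 35.8 and 76.1 CPM, 11.0 and 73.6 CPM, and 1125 and 2338 CPM, so that Anxa5 did not reach the bar in cluster 13. Over the whole class Anxa5 and Gng12 passed the minimum through day 7 only and could be called only as higher, while Ctsb passed in sham too. Of 16 lysosomal genes 2 were higher, Ctsb and Ctsd, and 15 had log2 ratios above 0. The median of the 16 was 0.52 against -0.04 for all measured genes. Within cluster 13 Ctsb alone was higher, and the median was 0.28 against 0.04. Of 80 ribosomal protein genes 9 were higher, with a median log2 ratio of 0.51 against -0.04 for all measured genes. None of 14 MHC class I or of 6 class II genes was called. Of all microglial genes 3.73% were called higher and 2.87% lower, and whether these lists differ from that was not tested. Srsf7, a splicing factor, was lower at 264 and 75.0 CPM, and so was Ckb, creatine kinase B, at 1372 and 661 CPM; Ckb did not reach the bar in cluster 13 (1387 and 787 CPM), under stricter purity or with cells of up to 3000 genes. Rtp4, an interferon-stimulated gene, went from 176 to 33.6 CPM, and Cxcl10, the interferon-induced chemokine, from 307 to 86.7 CPM. The largest falls also held 0610040J01Rik, a gene of unknown role (138 and 29.7 CPM). Cst3 (cystatin C), the most abundant transcript of sham microglia among those named, went from 73120 to 27420 CPM, but did not reach the bar in cluster 13 (67484 and 34283 CPM), while cluster 10 went from 139416 to 40325 CPM. P2ry12, the purine receptor of resting microglia, was a gate marker, and in cluster 13 it had 2132 CPM in sham and 1114 CPM at day 7.

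Astrocytes gave the least certain values, with 74 and 46 cells, and 1 UMI stood for 4.25 CPM in sham and 7.40 CPM at day 7. Gfap, the intermediate filament of reactive astrocytes, went from 238 to 13 UMIs (1011 and 96.2 CPM, ratio 0.0952, 0.0499 to 0.166), and Vim from 32 to 5 UMIs. A single cell held 34.0% of the sham and another 38.5% of the day 7 Gfap UMIs, so that few cells carried the value in either library. On days 1 and 3 Gfap had 1915 and 3180 CPM, so that day 7 was the lowest of the 4 libraries. Of the 3 reactive astrocyte genes past the minimum in both libraries 1, Gfap, was lower (3.72% of all genes were), and Vim passed through sham only. None of 12 genes of astrocyte homeostasis was called (2.99% of all genes were higher and 3.72% lower), Slc1a2, the main glutamate transporter, having 3731 and 5388 CPM. Of the 11 immediate-early genes measured 6 passed the minimum through day 7 only, and 2 of the other 5 were higher (2.99% of all genes), but a single cell held 88.0% of the day 7 UMIs of Fos (30 and 100 UMIs), whose log2 ratio was 2.45 and turned to -0.52 when 4 markers per cell were needed. Jun went from 28 to 77 UMIs, and Dusp1, a MAP kinase phosphatase, from 6 to 18 with 33.3% of them in 1 cell. Fkbp4, a co-chaperone of steroid receptors, went from 26 to 2 UMIs, Napa, a vesicle fusion factor, from 38 to 6, Usf2, a transcription factor, from 18 to 3 and Rex1bd from 26 to 3. Ppig, a cyclophilin, went from 13 to 23 UMIs and Arid4b, a chromatin protein, from 11 to 17. The largest rises among genes that no other class held at over 5 times the level were Gm9925 (12 and 38 UMIs), Slc23a2, a vitamin C transporter with 51.9% of its day 7 UMIs in 1 cell, and Pan3, a deadenylase subunit (8 and 23 UMIs). The largest such falls beside Gfap were Fgfbp3 (26 and 1) and Gm32913, 96.9% of whose sham UMIs came from 1 cell. Counts of this size cannot separate a class-wide difference from that of a few cells.

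The bar itself divided close values. Just inside it lay Ptgds in endothelial cells (148.7 and 307.7 CPM), Atf5 in mural cells, Snrpn in oligodendrocytes (281 and 135 CPM), Jdp2 in microglia (28.5 and 67.2 CPM) and Pitpnc1 in astrocytes (297 and 607 CPM). Just outside lay Cxcl2 in endothelial cells (66.3 and 28.2 CPM), Plce1 in mural cells (115 and 241 CPM), Fscn1 in oligodendrocytes (499 and 245 CPM), Zfp36l1 in microglia (713 and 1426 CPM) and Tbc1d10a in astrocytes (127 and 59.2 CPM).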

How the data were processed

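The authors deposited, for each library, a matrix of UMI counts per gene and cell barcode, which was used unchanged. The file headers name Cell Ranger 4.0.0, whereas the submitters' processing notes name Cell Ranger 3.0.1, Seurat 4.1.2 and GRCh38. The gene identifiers are mouse, and 30934 of 31053 (99.6%) matched GENCODE vM21 (GRCm38), from which positions were taken. Kept cells had 200 to 6000 genes and at most 10% mitochondrial UMIs; the study's limit of 3000 genes was an alternative. Cells were gated on fixed markers, with gate markers and mitochondrial genes left out of all counts of called genes. UMIs were summed per class and library and given as CPM, and ratios have exact conditional Poisson 95% intervals. Cells of 1 library are not replicates. The classes, lists and rules were chosen with earlier results of these data known. Genes were named by 3 rules: called in all 5 classes, the 4 largest rises and falls of 1 class alone, and the 3 largest rises and falls of a class for which no other gated class of 50 or more cells stood over 5 times higher; list members served as examples, and other genes were chosen after their values were seen. Clusters came from scanpy 1.11.5 (2000 variable genes, 30 components, 15 neighbours, Leiden resolution 1). Scrublet doublets were left out in an alternative only. Python 3.11.15, numpy 2.4.6, scipy 1.17.1 and pandas 2.3.3 were used. Other settings of these choices, 3 of them added after the data were seen, are given in the closing section. A few named genes are not reported here.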

Additional observations from a re-analysis of the deposited data

Results flagged for a closer look

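In 8 genes the call went one way in 1 class and the opposite way in another, and in 6 of them the second class was astrocytes, the class with the fewest UMIs. The difference between classes was not tested. Fabp5 was higher in microglia (33.3 and 635 CPM in sham and at day 7) and lower in oligodendrocytes (1349 and 516 CPM), a difference of 5.27 between the log2 ratios. Of the day 7 Fabp5 UMIs in microglia, 83.6% lay in the 36 cells of the unnamed cluster 27, and cluster 13 had 24.8 and 121 CPM. Sparc was higher in oligodendrocytes (40.6 and 100.4 CPM) and lower in endothelial cells (1867 and 803 CPM), a difference of 2.33. Cdkn1a was higher in oligodendrocytes (12.3 and 87.2 CPM) and lower in astrocytes (204 and 74.0 CPM), a difference of 3.47. Vim (3.67) and Dazap2 (3.94) were higher in microglia and lower in astrocytes. Fn1 (2.39) and Ahnak (2.56) were higher in mural cells and lower in astrocytes. Rpl23a (2.99) was higher in endothelial cells and microglia and lower in astrocytes, and reads of ribosomal protein genes can be shared with their many pseudogenes.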

How the results depend on the processing

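No paired analysis was possible because each group was 1 library, and no library could be left out. Of 658 values (47 pairs of a named gene and a class under 14 settings), 523 moved by less than counting error, 130 moved by more with the same sign, up or down, and 5 reversed. Fos in astrocytes reversed to -0.52 (4 markers), -0.23 (stricter purity) and -0.63 (5% mitochondrial limit), and with classes taken from clusters Anxa5 and Lyz2 in microglia reversed to -0.34 and -1.28. The genes lower in all 5 classes, 1 in the report, were 3 with classes from clusters and 2 with centring, with the mean over cells and after thinning to 1000 UMIs. With astrocytes left out and a bar of 1.5-fold (chosen, like leaving out astrocytes, after the data were seen), 13 were higher and 3 lower. At 2-fold without astrocytes, genes of 1 class alone were 1 in endothelial cells and 3 in oligodendrocytes, and in microglia they were 14 higher and 6 lower. With all 5 classes the 1 of oligodendrocytes was 0 with 2 markers or centring. In mural cells they were 1 at the 5% mitochondrial limit and 2 with clusters. For microglia they were 8 under stricter purity, 7 at 3000 genes per cell, 9 at the 5% limit, 4 with clusters and 8 at a 100 CPM minimum. For astrocytes they were 15 at the 100 CPM minimum and 12 after thinning. Endothelial genes higher were 25 by the mean over cells and 24 after thinning. Mural genes higher were 23 with 20 CPM added, 18 by the mean over cells and 93 in pericyte-like cells, and those lower were 24 at the 5% limit, 35 with clusters, 11 with centring and 36 in pericyte-like cells. Oligodendrocyte genes higher were 80 with 5 CPM added, 32 with 20 CPM added and 30 at the 100 CPM minimum, and those lower were 21 after thinning. Microglial genes higher were 61 at the 100 CPM minimum, and those lower were 55 with 20 CPM added, 45 at 100 CPM and 51 in passing clusters, an alternative added after the data were seen. Astrocyte genes were 32 higher and 35 lower after thinning. The share of cells at day 7 over that in sham, 1.07 for endothelial cells, was 1.02 at 3000 genes and 1.13 at the 5% limit. For mural cells it was 1.21, and 1.32 under stricter purity, 1.07 at 3000 genes and 1.34 at the 5% limit. For oligodendrocytes it was 0.74, and 0.81 at 3000 genes, 0.47 at the 5% limit and 0.85 with clusters. The causes were not tested.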
